A study of Homo sapiens with 12 samples.

Results

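CCNA1, H3Y1, KDM4E, TRIM43, RFPL4B, FAM151A and ALPG are genes of the transcription programme of the 8-cell human embryo. They lie outside chromosome 19 and were grouped as single-copy genes. Even so, H3Y1, TRIM43 and ALPG have close relatives nearby (H3Y2, TRIM43B and ALPP), and KDM4E lies near its family members KDM4D and KDM4F. The 7 genes were taken by name from 19817 protein-coding genes of chromosomes 1 to 22 and X (RefSeq, GRCh38.p14, the assembly of the hg38 coordinates), and all 7 were found. Their bodies and the 200 kb on either side were set against nucleolus-associated domains (NADs), the chromosomal DNA that purifies with nucleoli. The cells were H9, an established line of human embryonic stem cells, untreated, in a naive state kept in RSeT medium and a primed state kept in mTeSR medium. Each state was sampled with 3 libraries of nucleolar DNA and 3 of whole-cell DNA, from which the authors made a single deposited list of NAD regions. The values below therefore carry no error between cultures, the states were not compared by any test, and the read depth is unknown. All libraries came from 1 cell line, and no gene expression was measured here.

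The 8-cell stage is the time of major activation of the human embryonic genome. The genes particular to that stage are silent in most cells, though some, such as ZSCAN4 and H3Y1, are switched on by the homeobox factor DUX4 when it is expressed. Chromatin near the nucleolus is as a rule poor in transcription and rich in repressive histone marks. By its title, the study concerns how the nucleolus is organised and how the 8-cell state is kept silent, and the question here was where these genes lie relative to NADs.

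Roles differ within the group. H3Y1 encodes H3.Y, a primate variant of histone H3, and KDM4E an intronless member of the family of Jumonji enzymes that remove methyl groups from histone H3 lysine 9. CCNA1 is the A-type cyclin of the germline, which partners cyclin-dependent kinases. TRIM43 belongs to the tripartite-motif family, many of whose members are ubiquitin ligases, and RFPL4B to the ret-finger-protein-like family. ALPG is the germ-cell alkaline phosphatase, used as a surface marker of naive human pluripotent cells. FAM151A is little studied.

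The start of H3Y1 lay in a primed NAD and that of its sister gene H3Y2 in a naive NAD. Start-site windows of 300 bases (250 before and 50 after the start, RefSeq, GRCh38.p14) were available for 5 of the 7 genes, and those of KDM4E and TRIM43 were not used here. None of the 5 windows touched a naive region and 1, that of H3Y1, touched a primed region, against 42.2% and 65.3% of 22131 windows of coding genes. Of the 2 genes without a window, TRIM43 had 100% of its body in primed NADs, and KDM4E had 0% in either list. The windows of H3Y1 (minus strand, chr5:17655800-17656099), H3Y2 (minus strand, chr5:17492027-17492326) and RFPL4B (plus strand, chr6:112347080-112347379) are shown because the first pair fell into opposite lists and the third lay farthest from any primed region. Capitals mark a match to the DUX4 consensus in H3Y1, the aligned bases in H3Y2, and TATAAA in RFPL4B.
H3Y1: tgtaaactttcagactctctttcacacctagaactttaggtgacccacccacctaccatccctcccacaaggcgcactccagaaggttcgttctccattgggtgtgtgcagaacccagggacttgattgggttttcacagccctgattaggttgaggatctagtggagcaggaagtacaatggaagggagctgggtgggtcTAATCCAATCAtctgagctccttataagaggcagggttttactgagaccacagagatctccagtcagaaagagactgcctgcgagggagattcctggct
H3Y2: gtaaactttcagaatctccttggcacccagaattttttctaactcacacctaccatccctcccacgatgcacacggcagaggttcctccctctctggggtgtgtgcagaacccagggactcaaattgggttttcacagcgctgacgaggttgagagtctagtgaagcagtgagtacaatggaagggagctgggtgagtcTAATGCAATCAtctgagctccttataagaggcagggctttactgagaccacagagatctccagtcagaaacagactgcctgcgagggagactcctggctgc
RFPL4B: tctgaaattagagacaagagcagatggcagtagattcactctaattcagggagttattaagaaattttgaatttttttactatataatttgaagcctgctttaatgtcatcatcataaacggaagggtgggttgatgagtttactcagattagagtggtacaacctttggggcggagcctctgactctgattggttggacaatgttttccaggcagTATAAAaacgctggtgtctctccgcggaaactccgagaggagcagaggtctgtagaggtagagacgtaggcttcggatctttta

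The H3Y1 window was 0% in naive and 100% in primed NADs, and the H3Y2 window was 100% in naive and 0% in primed NADs. Aligned end to end, the windows of the sister genes had the same base at 260 of 304 columns, or 85.5%. The H3Y1 match to the DUX4 consensus began 49 bases before the start site, on the gene's own strand. The consensus, searched on both strands, was found in 0.157% of the 35116 windows of the promoter table, and among the 5 windows it was found in H3Y1 alone. The aligned stretch of 11 bases in H3Y2 differed by 1 substitution, C5G, counted from 1 at the 5′ end of the match. TATAAA, present in 11.5% of windows, was found in RFPL4B alone of the 5 genes, 34 bases before the start. CCAAT, present in 34.6%, was found in H3Y1, RFPL4B and FAM151A, with 1 of the 3 copies in H3Y1 inside the DUX4 match. The CCNA1 window was the richest in G and C, at 72.7% with 35 CpG dinucleotides, and that of RFPL4B the poorest, at 42.0% with 8. These letters describe the windows, and the binding of a factor was not measured.

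By gene body, 1 of the 7 genes overlapped a naive NAD and 4 overlapped a primed NAD. Over all 19817 coding genes the shares were 76.8% and 81.8%. All 7 genes are short, from 0.982 kb for H3Y1 to 14.3 kb for FAM151A, and a short gene meets a region less easily, so the 7441 coding genes of at most 15 kb are the closer comparison. Of these, 57.2% overlapped a naive and 79.5% a primed NAD. ALPG lay in naive NADs only, the state of 8.55% of short and 11.6% of all coding genes. CCNA1, H3Y1, TRIM43 and FAM151A lay in primed NADs only, the state of 30.8% of short and 16.6% of all coding genes. KDM4E and RFPL4B lay in neither list, as did 12.0% of short and 6.57% of all coding genes. No gene of the 7 lay in both, the state of 48.6% of short and 65.2% of all coding genes.

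**Figure D1:**
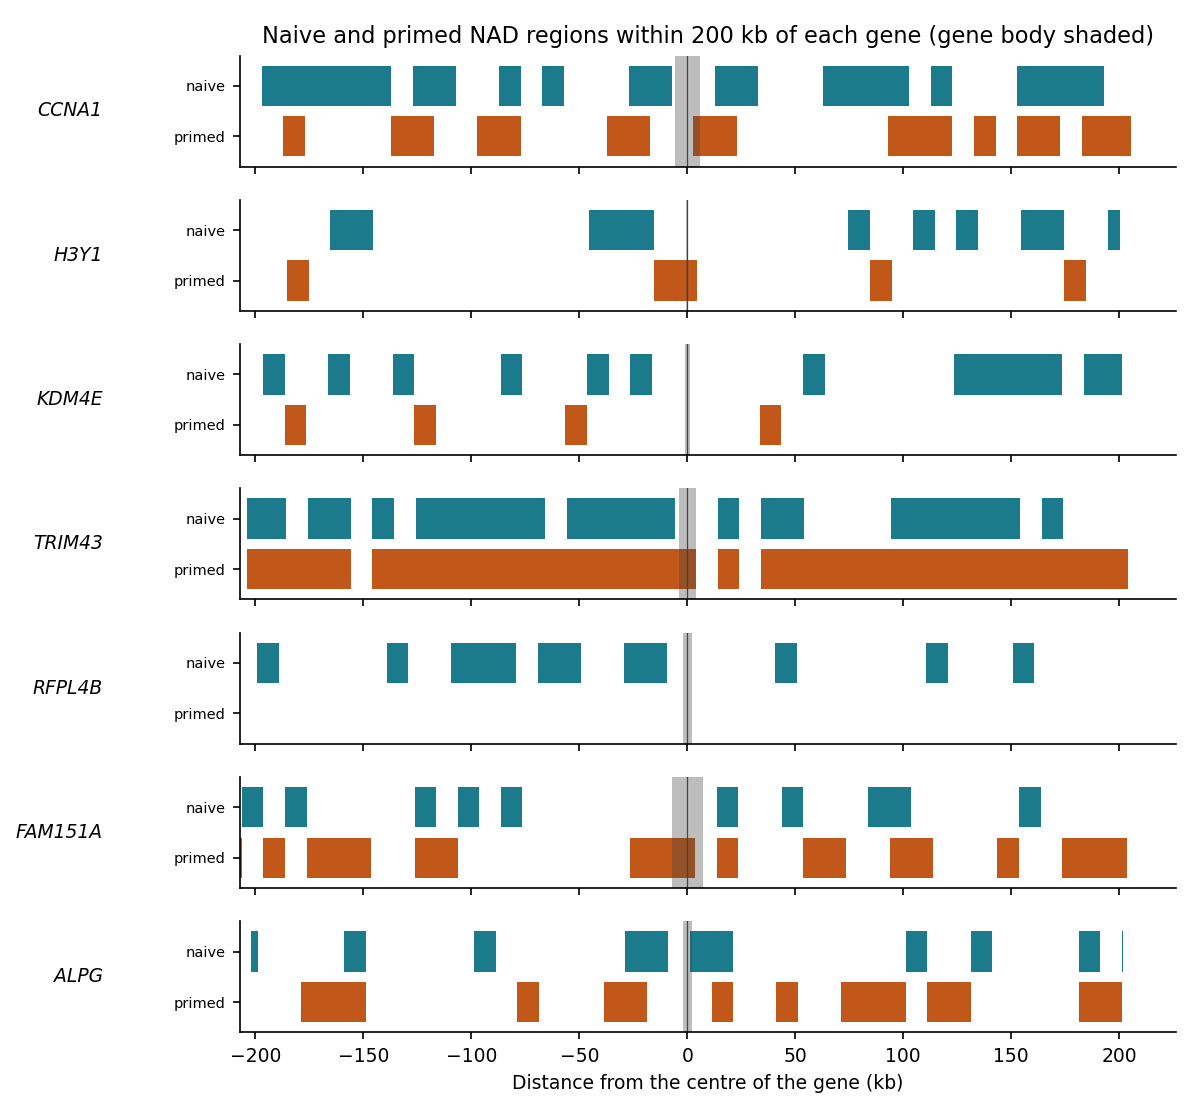
Regions of the naive (upper row) and primed (lower row) NAD lists within 200 kb of each gene, plotted by distance in kb from the centre of the gene, with the gene body shaded. No primed region appears in the RFPL4B window, and primed regions fill 370 of the 400 kb beside TRIM43.

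The covered parts of the gene bodies were uneven. H3Y1 (chromosome 5, 17654868 to 17655849) had 0% of its body in naive and 100% in primed NADs, inside a primed region of 20 kb from 17640001 to 17660000. The nearest naive region ended where this primed region began, 14.9 kb from the gene, so the lists met at that boundary without overlap. TRIM43 (chromosome 2, 95592001 to 95599778) had 0% in naive and 100% in primed NADs, at the edge of a primed region of 150 kb. A naive region ended 2 kb from it.

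The other covered bodies were touched in part. FAM151A (chromosome 1, 54609181 to 54623525) lies wholly within the body of ACOT11, an acyl-CoA thioesterase gene, and had 0% in naive and 75.4% in primed NADs. CCNA1 (chromosome 13, 36431517 to 36442870) had 0% in naive and 25.3% in primed NADs. ALPG (chromosome 2, 232406844 to 232410714) had 18.4% in naive and 0% in primed NADs, which was 0.714 kb of sequence. In each of these 3 genes the covered part was the 3′ side, since the CCNA1, FAM151A and ALPG start-site windows lay 8.0, 3.48 and 3.11 kb from the region that touched the body. All 3 distances are shorter than the 10 kb grid on which the regions were drawn.

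KDM4E (chromosome 11, 95025258 to 95027596) and RFPL4B (chromosome 6, 112347330 to 112351294) had 0% of their bodies in either list, but at very different distances. The nearest region to KDM4E was 15.3 kb away in the naive and 32.4 kb away in the primed list. For RFPL4B these distances were 7.33 kb and 247.3 kb. Near misses were common in the naive list: 4 of the 6 genes outside it had a naive region within 10 kb, as did 55.8% of all 4590 coding genes outside it.

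**Figure D2:**
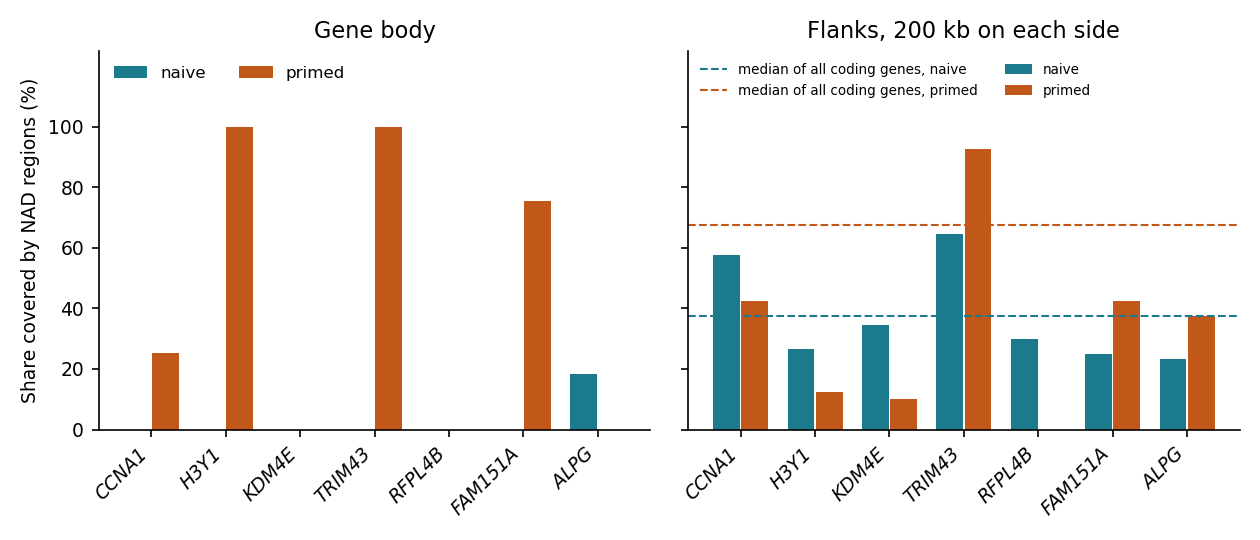
Share of the gene body (left) and of the flanks of 200 kb on each side (right) covered by naive and primed NAD regions, in percent, 1 pair of bars per gene. Dashed lines are the medians of all coding genes, 37.5% naive and 67.5% primed, and the primed flank share of all genes but TRIM43 stands below the primed line.

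In the flanks, 3 of the 7 genes, RFPL4B, KDM4E and H3Y1, had at most 12.3% primed NAD sequence, CCNA1, FAM151A and ALPG had 37.5% to 42.5%, and TRIM43 had 92.5%. The mean over the 7 genes was 37.3% ± 16.7 in naive and 33.9% ± 31.0 in primed NADs (SD over genes, which are not replicates). Over all coding genes the means were 38.5% ± 14.4 and 60.0% ± 34.4. Without regions of a single 10 kb bin, the order of the means of the 7 genes turned, to 24.8% in naive and 28.2% in primed NADs, against 26.0% and 54.9% for all coding genes. The primed flank share was below the coding-gene median of 67.5% for 6 of the 7 genes, and the naive share below its median of 37.5% for 5. The naive share exceeded the primed share for 4 of the 7 genes, CCNA1, H3Y1, KDM4E and RFPL4B, and for 25.9% of all coding genes. It did so for 16.2% of the short ones.

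The genes ranged from a window without any primed sequence to one nearly filled with it. RFPL4B had 30.0% of its flanks in naive and 0% in primed NADs. It lay in a stretch of 1570 kb of chromosome 6 without a primed region, from 112100001 to 113670000, which held only LAMA4, a laminin chain gene, besides it. Of all coding genes, 3.08% lay in a primed-free stretch at least as long. The naive list had 8 regions in the RFPL4B window, none longer than 30 kb, and 120 kb of the flanks lay in naive NADs alone.

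KDM4E had 34.4% of its flanks in naive and 10.0% in primed NADs, and H3Y1 26.5% and 12.3%. In neither window did the lists share a base within the flanks: 137.6 kb lay in naive and 40 kb in primed NADs alone beside KDM4E, and 105.8 kb and 49.0 kb beside H3Y1. Every primed region in the KDM4E window was a single bin of 10 kb. CCNA1 had more of its flanks covered than these genes in both lists, 57.5% naive and 42.5% primed, with 100 kb in common. Its naive share was higher than that of 89.7% of coding genes. Even so, the gene sat in a naive-free gap of 20 kb, from 36430001 to 36450000, between naive regions on both sides.

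TRIM43, FAM151A and ALPG had more primed than naive flank sequence. TRIM43 had 64.5% of its flanks in naive and 92.5% in primed NADs, the highest of the 7 genes in both lists. All 258 kb of its naive flank sequence was also primed, and its window reached into a primed region of 950 kb, from 94490001 to 95440000. FAM151A had 25% in naive and 42.5% in primed NADs, and ALPG 23.3% and 37.5%. The lists shared 30 kb beside FAM151A and 40 kb beside ALPG.

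Much of the flank sequence of some genes came from regions of a single 10 kb bin. Without them the naive flank share was 5% for FAM151A, 9.82% for ALPG, 16.9% for KDM4E, and 17.5% each for RFPL4B and H3Y1. The primed share was then 4.75% for H3Y1 and 0% for KDM4E. With flanks of 100 kb in place of 200 kb, the naive share of KDM4E was 20%.

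Each window of the 7 genes met 7 to 9 naive regions, the longest of them 20 to 60 kb long. Primed regions were more uneven in number, with 0 beside RFPL4B, 4 each beside H3Y1, KDM4E and TRIM43, 8 beside ALPG, 9 beside CCNA1 and 10 beside FAM151A. H3Y1 and FAM151A each sat in a naive-free stretch of 90 kb, and 6.24% of all coding genes lay in one at least as long. KDM4E sat in one of 70 kb and RFPL4B in one of 50 kb, which was the median for coding genes outside naive NADs. TRIM43, like CCNA1, sat in a naive-free gap of 20 kb.

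The sides of a gene, left being the side of lower coordinates, were unequal for some genes. RFPL4B had 45% of its left and 15% of its right flank in naive NADs, and TRIM43 79.0% and 50%. For the other 5 genes the naive sides differed by less, from no difference for FAM151A to 30.0% left and 38.8% right for KDM4E. In primed NADs the sides were furthest apart for CCNA1, 35% left and 50% right, and ALPG, 30.0% and 45%. H3Y1 had 12.4% and 12.1%, and TRIM43 95% and 90.0%.

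The chromosomes themselves differed, and the genes did not always follow them. Coding genes of chromosome 2 had median flank shares of 29.8% in naive and 28.8% in primed NADs, so the TRIM43 window stood above both and the ALPG window below the naive and above the primed value. On chromosome 11 the medians were 37.0% and 62.2%, both above the values of KDM4E. On chromosome 6 they were 32.5% and 41.2%, above those of RFPL4B, and on chromosome 5 31.0% and 39.4%, above those of H3Y1. FAM151A was also below both medians of chromosome 1, 32.6% and 59.6%. CCNA1 was above the naive median of chromosome 13, 42.5%, and below the primed one, 56.0%. In each list, 5 of the 7 genes thus stood below the median of their own chromosome.

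Averaged over broad zones of distance from the gene, the mean cover of the flanks ranged from 33.0% to 39.6% in naive and from 31.3% to 36.2% in primed NADs. The zones hold the same 7 genes, and change with distance within a gene was not tested. In steps of 10 kb the mean over the 7 genes was more uneven, from 10.5% to 71.3% in naive and from 0.317% to 63.1% in primed NADs. Within 50 kb the 7 genes averaged 37.1% ± 19.7 in naive and 31.9% ± 25.4 in primed NADs. Between 50 and 100 kb the means were 33.0% ± 19.6 and 31.3% ± 33.9, and between 100 and 200 kb 39.6% ± 19.9 and 36.2% ± 33.2 (SD over 7 genes). All coding genes had primed means of 59.7% to 60.2% in these zones.

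Neighbouring genes showed how locally the lists could change. Of all coding genes, 76.8% overlapped a naive and 81.8% a primed NAD, and of those of at most 15 kb 57.2% and 79.5%. In the H3Y1 window, 5 of 14 neighbouring coding genes lay in naive and 0 in primed NADs. These 5, H3Y2, TAF11L2, TAF11L12, TAF11L13 and TAF11L14, had 100% of their bodies in naive and 0% in primed NADs. TAF11L genes form a tandem array of copies related to the general transcription factor gene TAF11, and the other 9 of the array within the window lay in neither list. Whether reads could be placed within these copies was not tested. The nearest coding gene on the other side of H3Y1, the cadherin gene CDH18, was 1815 kb away.

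In the ALPG window, 5 of 10 neighbours lay in naive and 8 in primed NADs, against 76.8% and 81.8% of all coding genes. PRSS56, a serine protease gene, and CHRND, a subunit gene of the muscle acetylcholine receptor, had 0% in naive and 100% in primed NADs. Of the nearest neighbours, ALPP had 69.8% in naive and 100% in primed NADs and ALPI 0% and 83.6%. In the FAM151A window, 5 of 7 neighbours lay in naive and all 7 in primed NADs, against the same shares of all coding genes. The nearest on each side that did not overlap it were MROH7, 18.3 kb away, with 29.6% in each list, and SSBP3, 195.7 kb away, with 12.5% in naive and 66.2% in primed NADs.

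In the KDM4E window, 4 of 7 neighbours lay in naive and 4 in primed NADs, against 76.8% and 81.8% of all coding genes. Its neighbours KDM4D and KDM4F had 38.7% and 0% in naive and 24.4% and 0% in primed NADs. The stress-response gene SESN3 had 81.4% in naive and 0% in primed NADs. The 3 neighbours of CCNA1 and the 3 of TRIM43 lay in both lists, as did 65.2% of all coding genes. SPART beside CCNA1 had 44.0% in naive and 56.0% in primed NADs, and TRIM43B beside TRIM43 had 100% in each. The nearest coding gene on the far side of CCNA1, SERTM1, had 67.1% and 74.9%, and that of TRIM43, LOC128966744, 1.81% and 100%. LAMA4, the 1 neighbour of RFPL4B, had 30.6% in naive and 0% in primed NADs, and MARCKS, the next coding gene on the other side, 1506 kb away, had 0% and 43.3%.

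**Figure D3:**
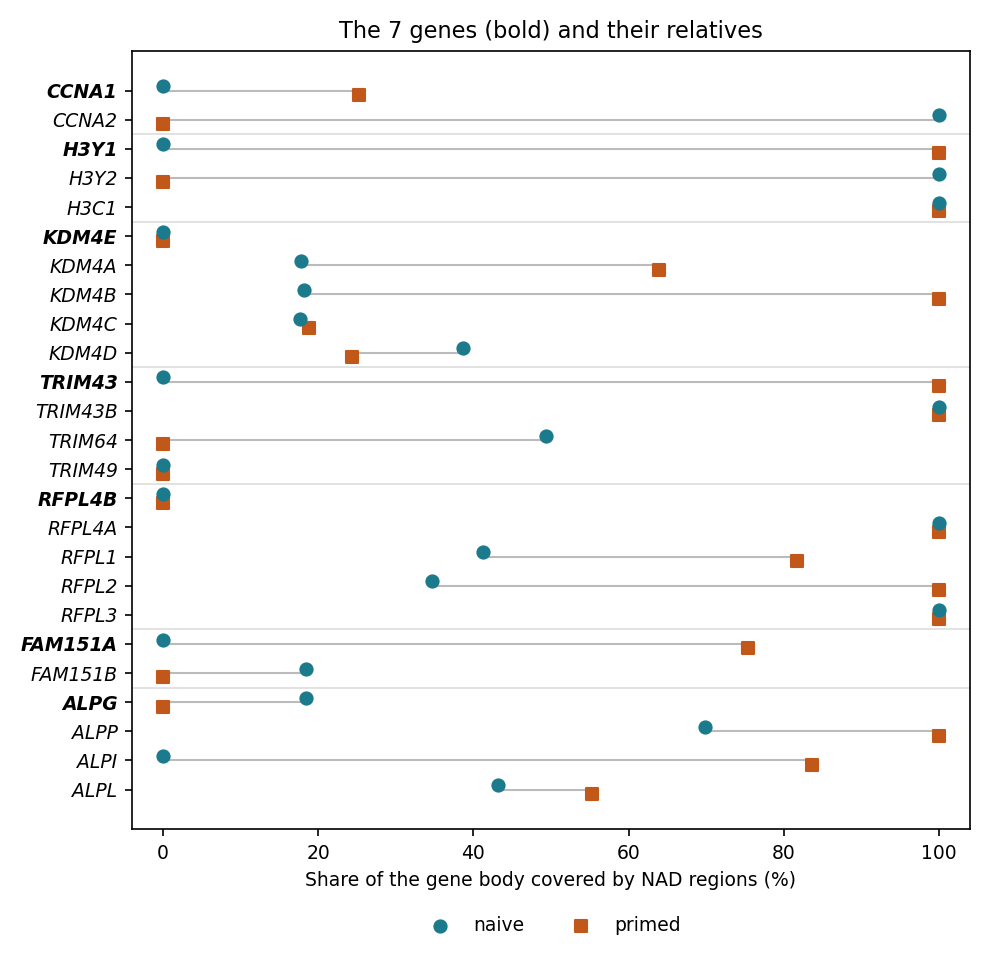
Share of the gene body in naive (circles) and primed (squares) NADs, in percent, for the 7 genes in bold and their relatives below each. H3Y1 and H3Y2 stand at opposite ends, at 0% and 100% in naive NADs and at 100% and 0% in primed NADs.

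Of 18 relatives on the list used here, 16 overlapped a naive and 13 a primed NAD, against 76.8% and 81.8% of all coding genes. Some were placed differently from the genes themselves. CCNA2, the cyclin A of somatic cells, had 100% in naive and 0% in primed NADs, the opposite lists from CCNA1. H3Y2 was 162.8 kb from H3Y1 and lay in the naive list alone, while the replication-dependent histone gene H3C1 had 100% in both. KDM4A, KDM4B and KDM4C, demethylases of the same family as KDM4E, had 17.6% to 18.2% of their long bodies in naive NADs, and in primed NADs 63.9%, 100% and 18.8%. TRIM64 had 49.3% in naive and 0% in primed NADs, and TRIM49 was in neither list. RFPL4A and RFPL3 had 100% in both, RFPL1 41.2% and 81.7%, and RFPL2 34.7% and 100%. FAM151B had 18.4% in naive and 0% in primed NADs, and ALPL, the alkaline phosphatase gene of bone and liver, 43.2% and 55.3%. H3Y1, TRIM43 and ALPG have close relatives of similar sequence, and the start-site windows of ALPG and ALPP had the same base at 82.7% of aligned columns. KDM4E lies 25.7 kb from KDM4D and 21.8 kb from KDM4F, of the same family, and its likeness to them was not measured. How reads that align to more than 1 place were treated is not given in the sources used here, and the part of such reads in these values was not tested. Without H3Y1, TRIM43 and ALPG, but with KDM4E kept, 0 of 4 lay in naive and 2 of 4 in primed NADs. Of short coding genes, 57.2% and 79.5% did. The mean flank share was then 36.7% in naive and 23.8% in primed NADs, against 38.5% and 60.0% for all coding genes. Of the 3 genes left out, TRIM43 had the highest primed flank share, 92.5%.

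**Figure D4:**
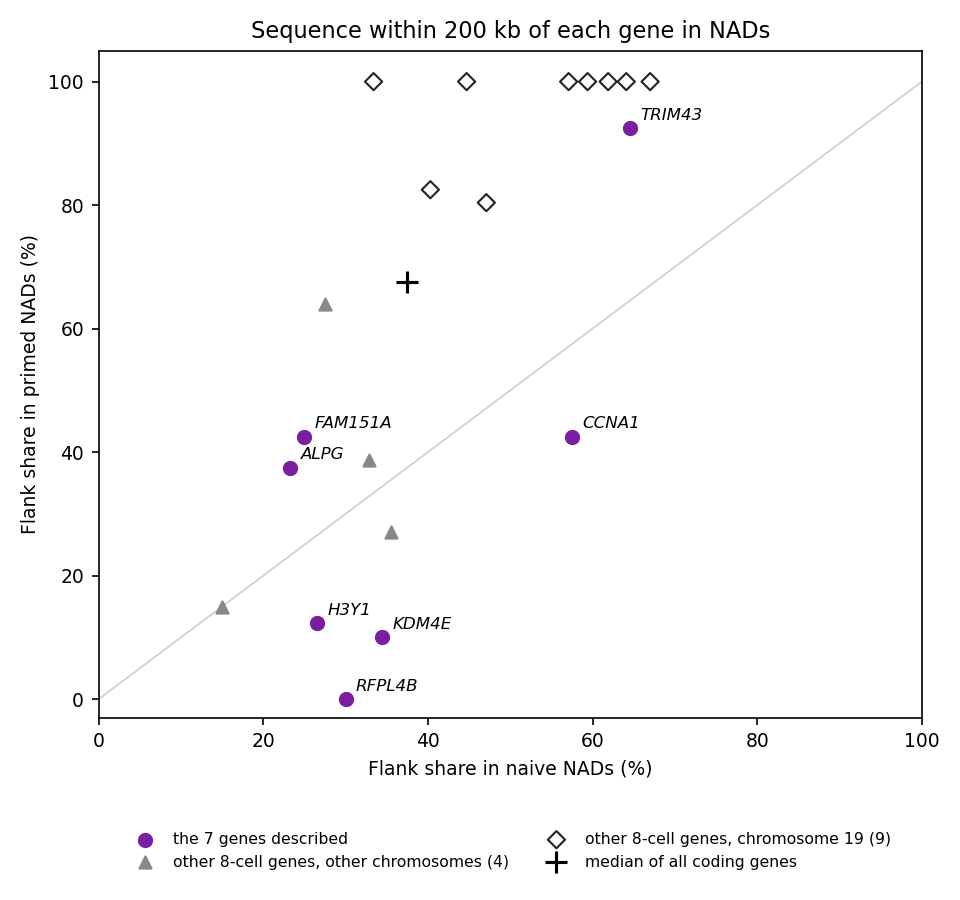
Share of the 200 kb flanks of each gene in primed NADs (vertical axis, percent) against naive NADs (horizontal axis, percent), for the 7 genes and 13 other 8-cell genes, with the line of equal shares. The 9 others on chromosome 19 all stand at 80.4% or more in primed NADs, and among the 7 genes TRIM43 alone does, at 92.5%.

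Of 13 other genes of the 8-cell programme on the list used here, 10 overlapped a naive and 12 a primed NAD, near the shares of all coding genes (76.8% and 81.8%). Their median flank shares were 44.7% in naive and 100% in primed NADs. The 9 on chromosome 19, among them ZSCAN4, LEUTX and DUXA, overlapped NADs in both lists, with primed flank shares from 80.4% to 100%. KDM4B and RFPL4A, relatives on chromosome 19, also overlapped both lists, with primed flank shares of 97.5% and 100%. The shares over all coding genes of that chromosome are not given here. The 4 elsewhere, ARGFX, DUXB, KLF17 and KHDC1L, had median flank shares of 30.2% in naive and 32.9% in primed NADs, near the medians of the 7 genes, 30.0% and 37.5%. Of these 4, KLF17 overlapped naive NADs, with 11.0% of its body, and KHDC1L was the 1 that touched no primed NAD.

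Over body and flank shares in both lists, 4 values a gene, the coding gene most like RFPL4B was GPR85 on chromosome 7, at a Euclidean distance of 0 percentage points. Ties went to the gene nearest in length, and the number of genes tied with GPR85 is not given here. HLA-DQA2 on chromosome 6 was nearest to TRIM43, at 0.649 points, and PFN4 on chromosome 2 to KDM4E, at 1.73. PRR23D2 was nearest to FAM151A at 2.8 points, RAMACL to H3Y1 at 4.02, TMEM170A to ALPG at 4.79 and SELPLG to CCNA1 at 9.75. Likeness here rests on 2 lists and says nothing of the genes beyond their cover.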

How the data were processed

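The 12 libraries (nucleolar and whole-cell DNA, 3 of each per state) were grouped by their labels. For each state the authors deposited a single BED list, tied by the labels to the 6 libraries of that state, which gives region coordinates in bp and no score. The submitters' processing notes name BWA, SAMtools 1.10, SICER and hg38, while settings, the joining of replicates and read depth were not given in the sources used here. Differences between lists can therefore come from depth or calling as well as from cells. The naive list held 61750 regions (mean 19.0 kb) and the primed list 29994 (mean 44.2 kb), on a 10 kb grid apart from 8 and 12 regions. They covered 1171 Mb in the naive and 1327 Mb in the primed list. Statements on position are no finer than 10 kb.

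Covered bases were counted with numpy 2.4.6 and pandas 2.3.3 under Python 3.11.15, after a check on simulated data. Start-site windows were aligned with Biopython 1.88. Figures used matplotlib 3.10.9. Genes on scaffolds outside the chromosomes were left out, and flanks were cut at chromosome ends. A gene lay in a NAD where any base of it did. Named genes were the 7 genes, their nearest coding neighbours, neighbours with 100% in 1 list and 0 in the other, the lists of relatives and of 13 other 8-cell genes, and the most alike gene at least 1 Mb away; others, such as SESN3, were chosen after their values were seen. The genes and lists were chosen with earlier results of these data known, and the motifs after the windows had been read. No test was made, since each state has 1 list.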

Additional observations from a re-analysis of the deposited data

How the results depend on the processing

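No paired analysis was possible because each state has 1 deposited list, with no value per replicate, so leaving out a replicate was not possible either. The number of genes in NADs was 1 in naive and 4 in primed NADs. It was 0 and 3 with 50% of the body required (34.7% and 61.2% of all coding genes), 5 and 5 with bodies extended by 10 kb on each side (89.8% and 86.7%), and 4 and 5 with regions up to 50 kb apart merged (88.7% and 85.4%). It stayed at 1 and 4 without single-bin regions (52.2% and 69.7%) and with gaps of 10 kb merged (78.1% and 82.5%). With H3Y1, TRIM43 and ALPG left out, a choice made after seeing the data, it was 0 and 2 of 4 (76.8% and 81.8% of all coding genes). The mean flank share was 37.3% in naive and 33.9% in primed NADs. Without single-bin regions it was 24.8% and 28.2% (26.0% and 54.9% for all coding genes), which turned the naive minus primed difference of 3.41 points to -3.36. With gaps of 10 kb merged it was 43.9% and 37.3%, and with gaps of 50 kb merged 76.0% and 55.4% (77.7% and 78.2% for all coding genes), a difference of 20.7 points. Without H3Y1, TRIM43 and ALPG, the primed share was 23.8% and the difference 13.0 points. Flanks of 100 or 500 kb left the means within their 95% Wilson intervals over bins, with differences of 3.42 and 0.743 points. The naive minus primed difference kept its sign for each single gene under the 5 alternatives run on it, apart from TRIM43, at 0 with gaps of 50 kb merged. Its size changed with the setting. The range was -1.76 to -30 points for FAM151A, -3.14 to -20.2 for ALPG, 4.44 to 17.5 for CCNA1 and 17.5 to 85 for RFPL4B. Of 42 body shares recomputed under these alternatives, 9 moved, all upward with gaps merged. Of 70 flank shares, 20 moved, 13 upward with gaps merged and 7 downward, 6 of them without single-bin regions and 1 with flanks of 100 kb (KDM4E). With only 1 list per state, read depth and the number of cultures limit every value, and bins next to each other are not independent.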
